A study of Mus musculus with 7 samples.

Results

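The resting transcriptome of control megakaryocyte-erythroid progenitors was described from 4 single-colour bead arrays, the arrays titled Control in a series of 7. They were picked by title, and this choice was made with earlier results of these data known. The labels give these 4 samples as WT cells of female C57BL/6 mice. The cells carried c-Kit, lacked Sca-1 and had low staining for lineage antigens, CD34 and CD16/32. No treatment, age or pooling is stated, and nothing says whether each sample came from its own mouse, so the spread between arrays may be partly technical. The other 3 arrays, from mice without SSB1 and SSB2, were used here only in an alternative normalization of all 7 arrays. No value of those 3 was read, and no comparison between groups was made.

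Megakaryocyte-erythroid progenitors are bone marrow cells that give rise to the platelet-forming megakaryocytes and to red blood cells. The transcription factors Gata1, Zfpm1, Tal1, Lmo2 and Ldb1 work together in both lineages, while Klf1 favours the red cell programme and Fli1 the megakaryocyte programme. A committed red cell precursor takes up iron through the transferrin receptor, makes heme and globin and builds a specialised membrane skeleton.

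Each array gave a fluorescence signal for 25697 probes, of which 23978 carried 1 gene symbol and stood for 16593 genes. Mean signal was 521, 469, 436 and 609 intensity units on arrays 1 to 4, so that array 4 was the brightest and array 3 the dimmest. The share of these probes with a detection p under 0.05, a value that sets a probe against the negative control probes of its own array, was 38.9% ± 1.61 (SD, n = 4). Arrays have no read depth. The number of arrays and the background limit the precision here, and other sources of imprecision were not tested. Across genes detected on all 4 arrays, which are not independent replicates, log2 signals of array pairs correlated at 0.983 to 0.991. Identical signals made up at most 0.413% of probes in any pair of arrays, so no array was a copy of another.

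Detection was tallied first. Of the 23978 probes, 8108 (33.8%) were detected on all 4 arrays and 13179 (55%) on none. A gene was represented by its probe with the highest mean signal. By that rule 6242 genes (37.6%) were detected on all 4 arrays, 8492 (51.2%) on none, and 472, 522 and 865 on 3, 2 and 1 arrays. The counts for gene groups below are to be read against these shares. Just inside the threshold lay Acot2, Klhl18 and Hdc, each with a highest detection p of 0.04887. Just outside lay Xpo4, D5Ertd579e and Stag3, each at 0.05013. Signal rank was the percentile of a probe among the 23978 on its own array, with 100 the brightest. A rank places the signal of a probe and not an amount of RNA, because probes bind with different strength. In bulk samples, fewer cells of a type and less RNA per cell cannot be told apart.

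The genes that define the population were read next. Klf1, an erythroid transcription factor, had signals of 8777, 8079.9, 7029.6 and 10188.5 on arrays 1 to 4. Its mean rank was 99.2 and its log2 values after normalization varied with an SD of 0.06, a spread lower than that of most genes of similar signal. Tfrc, the transferrin receptor, had signals of 2338, 2603, 2624 and 4599, with a mean rank of 97.04. Its normalized log2 value was lowest on array 1 at 11.13 and highest on array 4 at 11.77, and its SD was 0.15 without array 1 in place of 0.28. Gata1, the factor required for both lineages, had signals of 301, 338, 362 and 487, a mean rank of 82.0 and an SD of 0.25 on the log2 scale. Itga2b, the integrin CD41 of the megakaryocyte lineage, had signals of 229, 167, 159 and 194, with a mean rank of 71.3. It was the most variable of these markers, with a normalized log2 value of 7.03 on array 1 against 6.17, 6.05 and 5.86 on arrays 2 to 4. Without array 1 its SD was 0.16 in place of 0.52. Leaving out the array farthest from the mean of a gene lowers its SD by construction, here and below. Kit was not analysed here.

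The gate was also read from the negative side. Cd34 was detected on 3 of 4 arrays, with signals of 138, 135, 143 and 171 and a mean rank of 62.5. The genes of CD16/32, Fcgr3 and Fcgr2b, were detected on no array, at mean ranks of 29.1 and 35.7. Of 6 lineage surface genes, Cd4, Cd5, Cd3e, Cd8a and Itgam were detected on none, and Ptprc, the common leukocyte antigen CD45, on 1. A probe without detection does not show that the gene is silent. Xist, the RNA that silences an X chromosome in female cells, was detected on all 4 arrays, with signals of 733, 1017, 604 and 1298 and a mean rank of 90.7. Of 6 Y-linked genes, 5 were detected on none, while Uty was detected on 3 at a mean rank of 63.6, a place near the detection threshold.

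Promoter sequence differed between detected and undetected genes, a feature that the choice of arrays had not used. RefSeq windows of GRCm38.p6, running from 250 bases before the start of a gene to 50 after it, were available for 13335 of the 16593 genes. The CpG ratio of a window is the number of CG steps over the number that its C and G content would give. Promoters rich in CpG are typical of genes used in many cell types. Shown are the 250 bases before the start for the 4 markers analysed, for Pf4, whose signal spread most for its level, and for Olfr1311, the olfactory receptor of lowest mean rank among those undetected and with a window. Capitals mark CG.
Gata1 (chrX:7967911-7968160, minus strand): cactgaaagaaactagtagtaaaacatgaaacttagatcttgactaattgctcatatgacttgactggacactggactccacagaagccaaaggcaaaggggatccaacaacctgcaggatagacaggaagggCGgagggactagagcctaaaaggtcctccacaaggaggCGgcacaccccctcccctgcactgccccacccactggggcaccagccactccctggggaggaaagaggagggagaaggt
Klf1 (chr8:84901732-84901981, plus strand): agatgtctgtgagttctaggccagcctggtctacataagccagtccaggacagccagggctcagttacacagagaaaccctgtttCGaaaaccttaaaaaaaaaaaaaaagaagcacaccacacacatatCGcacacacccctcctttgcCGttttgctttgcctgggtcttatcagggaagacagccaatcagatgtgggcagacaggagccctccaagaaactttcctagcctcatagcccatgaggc
Tfrc (chr16:32608646-32608895, plus strand): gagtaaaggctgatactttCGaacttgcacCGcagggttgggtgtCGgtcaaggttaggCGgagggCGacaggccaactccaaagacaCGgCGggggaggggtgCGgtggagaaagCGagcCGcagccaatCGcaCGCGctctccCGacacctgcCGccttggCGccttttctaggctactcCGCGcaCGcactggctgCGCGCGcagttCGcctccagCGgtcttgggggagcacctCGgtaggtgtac
Itga2b (chr11:102469884-102470133, minus strand): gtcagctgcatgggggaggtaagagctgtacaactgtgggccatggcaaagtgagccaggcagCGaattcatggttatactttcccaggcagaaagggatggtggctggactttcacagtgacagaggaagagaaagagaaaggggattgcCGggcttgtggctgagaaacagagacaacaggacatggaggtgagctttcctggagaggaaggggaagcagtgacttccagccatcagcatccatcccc
Pf4 (chr5:90772185-90772434, plus strand): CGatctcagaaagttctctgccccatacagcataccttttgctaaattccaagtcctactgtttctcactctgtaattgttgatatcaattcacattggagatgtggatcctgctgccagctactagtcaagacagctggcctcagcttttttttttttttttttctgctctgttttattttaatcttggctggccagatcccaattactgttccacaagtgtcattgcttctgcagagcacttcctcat
Olfr1311 (chr2:112021853-112022102, minus strand): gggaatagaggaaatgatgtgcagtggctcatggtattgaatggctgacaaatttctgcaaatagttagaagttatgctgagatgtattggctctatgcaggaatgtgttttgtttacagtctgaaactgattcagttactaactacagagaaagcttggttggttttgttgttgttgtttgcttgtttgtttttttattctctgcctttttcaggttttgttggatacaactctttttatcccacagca
The marker stretches were of different kinds. Tfrc had 25 CG steps and a ratio of 0.940 over its window, whereas Gata1 had 2 and a ratio of 0.167, Klf1 3 and 0.152, and Itga2b 2 and 0.266. Pf4 had 1 CG and a ratio of 0.217, and Olfr1311 had 0. All 4 markers were nevertheless detected on every array, so a low CpG ratio went with high signal in the case of Klf1.

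Across the genome the median CpG ratio was 0.796 for 5206 genes detected on all 4 arrays, 0.631 for 1481 detected on 1 to 3, and 0.355 for 6648 detected on none. A ratio above 0.6 was found in 78.0% of genes detected on all 4 and in 32.8% of genes detected on none. The classes also differed in base composition, with a median GC content of 60.7% for genes detected on all 4 and 53.3% for genes detected on none. Olfactory receptors account for part of the undetected class, and without them its median ratio was 0.431. Cytosolic ribosomal protein genes detected on all 4 had a median ratio of 0.890, and erythroid and megakaryocyte transcription factors 0.815. Megakaryocyte and platelet genes stood at 0.217, B-lineage genes at 0.123 and neutrophil genes at 0.180 over their members detected on all 4. These promoter values are descriptions of 1 window per gene, and starts used in progenitors may lie elsewhere.

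**Figure D1:**
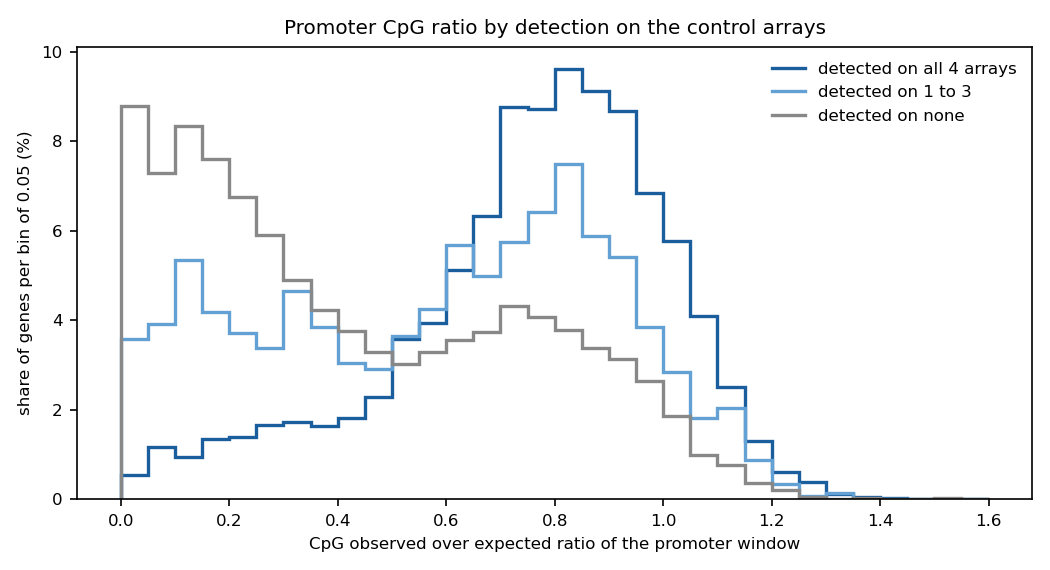
Share of genes, in percent per bin of 0.05, by the CpG observed over expected ratio of the promoter window, for genes detected on all 4 control arrays, on 1 to 3 and on none. The genes detected on all 4 peak at high ratios around their median of 0.796, while those detected on none are spread over low ratios with a median of 0.355.

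Motif letters were searched in the same windows. AGATAA, a form of the site bound by GATA factors, was searched on both strands and found in 6.26% of windows of genes detected on all 4, 12.9% of those detected on none and 9.75% of all windows. CCACACCC, a form of the CACC box bound by Klf factors, was searched on both strands and found in 3.92%, 3.84% and 3.85% of the same sets. TATAAA, the TATA box read on the sense strand, was found in 4.26%, 12.1% and 8.43%. With olfactory receptors left out, the shares among undetected genes were 10.6% for AGATAA, 4.38% for CCACACCC and 10.4% for TATAAA. A window with several of these motifs counted for each. AGATAA and TATAAA are rich in A and T, and their lower shares stand beside the higher GC content of the detected genes. Among genes detected on all 4, AGATAA was in 3 of 10 windows of red cell membrane genes and 1 of 10 of heme genes. It was in 2 of 19 windows of erythroid and megakaryocyte factors and 2 of 9 of megakaryocyte and platelet genes. Interferon response genes had it in 3 of 13, cytosolic ribosomal protein genes in 3 of 48 and B-lineage genes in 0 of 6. Most of these sets are small. None of the 6 stretches shown above held AGATAA, CCACACCC or TATAAA, which says only that these letters are not in those stretches. A match is likewise a description. Within the detected genes, those with the highest 5% of spread for their level had a median CpG ratio of 0.702, against 0.796 for all detected genes.

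Transcription factors of the erythroid and megakaryocyte lineages were widely detected, 21 of 26 measured genes on all 4 arrays, with a median rank of 91.9 among the detected. Zfpm1, the Gata1 partner also called FOG-1, ranked highest at 99.4. Its signals were 8408, 10459, 9690 and 15063. Lmo2 and Ldb1, adaptors of the same complex, ranked at 99.2 and 99.0, and Gfi1b, a repressor needed for both lineages, at 97.8. Nfe2, a factor of late megakaryocytes that also acts in red cells, ranked at 96.7 with an SD of 0.06 on the log2 scale, or 0.03 without array 1. Gata2, which precedes Gata1 in stem and progenitor cells, ranked at 92.5 and was less even, with normalized log2 values of 10.47, 10.13, 9.59 and 9.89. Zfpm1 was also uneven at an SD of 0.35, and without array 1 its SD was 0.12. Fli1, Sox6, Foxo3 and Mafk were detected on no array.

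Factors of other blood lineages were less often detected, 2 of 15 on all 4 arrays and 8 on none. Cebpb, a factor of myeloid cells, had signals of 514, 521, 421 and 616 and a mean rank of 85.9. Ebf1, the B-cell specification factor, lay near the threshold at a mean rank of 63.5 with signals of 147, 140, 142 and 159. Pax5 of B cells, Gata3, Tbx21, Eomes and Bcl11b of T cells and Cebpe of granulocytes were detected on none. Spi1, Cebpa and Irf8 were each detected on 1 array only. They were named after their values were seen.

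Stem cell genes were detected on all 4 arrays in 5 of 18 cases, or 27.8% against 37.6% of all genes, and 10 were on none. Msi2, an RNA-binding regulator of stem cells, ranked at 82.6 with an SD of 0.12. Meis1, a homeobox partner of Hox proteins, was far less even, with signals of 338, 191, 179 and 301. Its normalized log2 value was highest on array 1, against 6.64, 6.52 and 7.05 on arrays 2 to 4, and without array 1 its SD was 0.28 in place of 0.67. Among 20 cytokine receptor genes, 6 were detected on all 4. Epor, the erythropoietin receptor, had signals of 869, 936, 699.7 and 1259.6 and a mean rank of 91.3. Ifngr1 of the interferon gamma receptor followed at 89.9, and the TGF-beta receptors Tgfbr1 and Tgfbr2 at 81.9 and 77.8. Flt3, Il5ra and Il9r were on none.

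**Figure D2:**
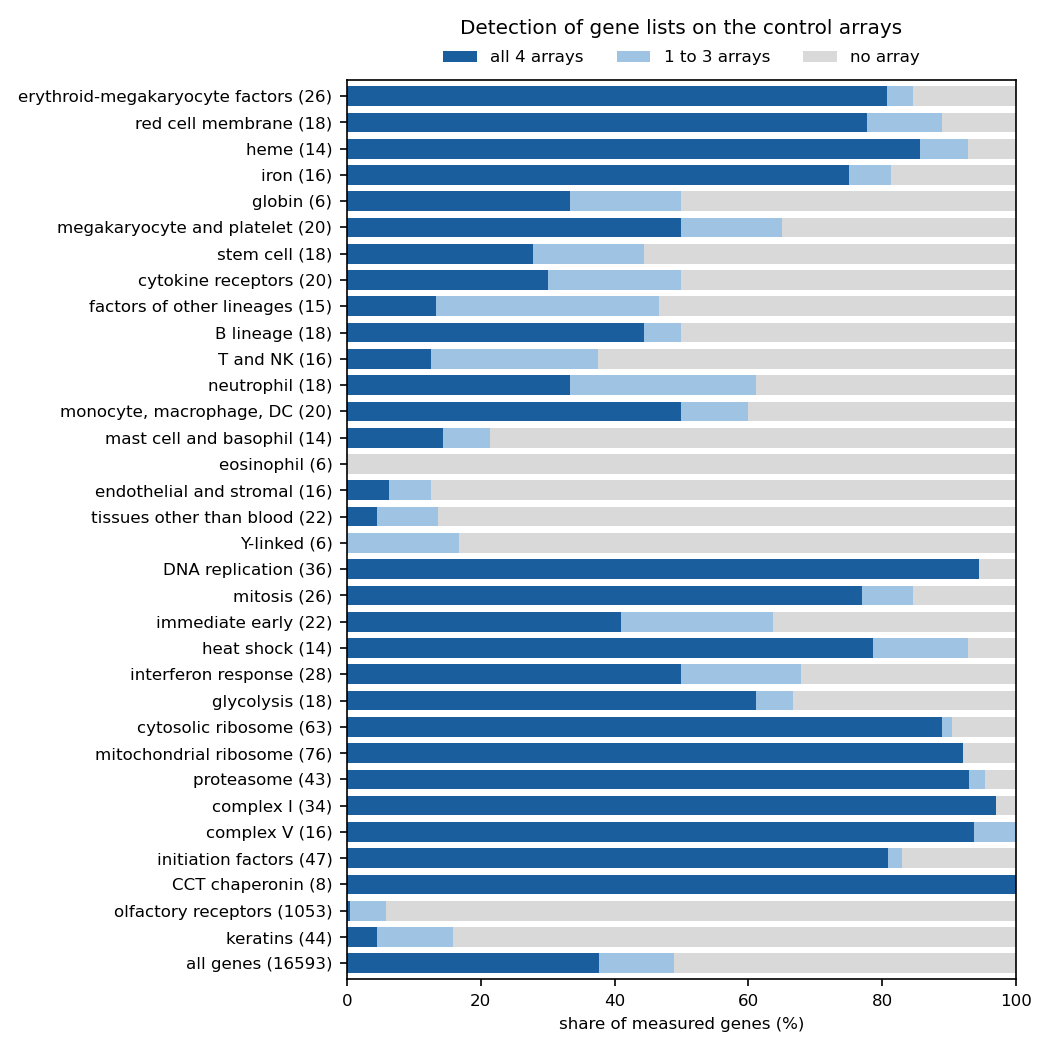
Stacked bars give the share of measured genes of each list, in percent, that were detected on all 4 control arrays, on 1 to 3 or on none, with the number of measured genes in parentheses. Ribosomal, proteasome, replication, red cell membrane, heme and iron genes are mostly detected on all 4, globin genes in 2 of 6 cases, while olfactory receptors, keratins and markers of tissues other than blood are mostly on none.

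Genes of the red cell programme were detected at high rank. Of 18 red cell membrane and cytoplasm genes 14 were detected on all 4 arrays, of 14 heme genes 12, and of 16 iron genes 12. Blvrb, biliverdin reductase B, had signals of 28727, 22683, 22779 and 26549.9 and a mean rank of 99.9. Car2, carbonic anhydrase 2, had signals of 5667, 4947, 4379 and 6516, and after normalization its SD was 0.02, a value near the lowest for its level. Aqp1, the water channel, ranked at 99.5. Slc4a1, the anion exchanger known as band 3, was the least even of the group, with signals of 193, 374, 268 and 282. Its normalized log2 value was 6.48 on array 1, 8.25 on array 2, 7.68 on array 3 and 6.90 on array 4. Epb42, a band 3 partner in the membrane skeleton, was on none.

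In the heme pathway Tmem14c, a mitochondrial porphyrinogen carrier, Alad and Urod, both enzymes of heme synthesis, ranked at 99.5, 99.5 and 99.3. Cpox, which acts in the late steps, ranked at 78.7, and Fech, which inserts the iron, at 67.2 with signals of 147, 143, 156 and 202. Alas2, the erythroid enzyme of the first step, was detected on 3 arrays only, at a mean rank of 62.4. It was named after its value was seen. Fth1, the ferritin heavy chain, was the third brightest gene of all at a mean rank of 99.98, and Glrx5, an iron-sulfur cluster protein, ranked at 99.2. Slc40a1, the iron exporter ferroportin, ranked at 97.4. Ftl1, the ferritin light chain, was on none.

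Globin probes gave a mixed picture, with 2 of 6 measured genes detected on all 4 arrays. Hba-a1 had signals of 5115, 6508, 4563 and 4612 and a mean rank of 98.4, and Hbb-bt had signals of 1338, 1852, 1311 and 1863 at 94.3. Both were highest on array 2 after normalization, Hba-a1 at 12.77 against 12.21, 12.44 and 11.78 on arrays 1, 3 and 4. Hbb-b2 was detected on 2 arrays, and the embryonic genes Hba-x, Hbb-bh1 and Hbb-y on none. Globin genes have near-identical copies, so a probe may read more than its named gene.

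Of 20 megakaryocyte and platelet genes 10 were detected on all 4 arrays, 7 on none. In this list F2r, a receptor for thrombin, ranked highest at 95.8 with an SD of 0.14. Gp5, a subunit of the von Willebrand factor receptor, followed at 93.8. A place in the list does not show that F2r acts in mouse platelets. Pf4, the platelet chemokine, had signals of 1669, 448, 574 and 626. Array 1 was thus apart from the others, and the normalized log2 values were 10.64, 8.61, 9.20 and 8.51. Treml1, a platelet granule receptor, was likewise highest on array 1, at 7.79 against 6.08, 6.70 and 6.22. Without array 1 the SD of Pf4 was 0.38 in place of 0.98, and that of Treml1 0.33 in place of 0.77. Itgb3, Tubb1, Selp and Thbs1 were on none.

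**Figure D3:**
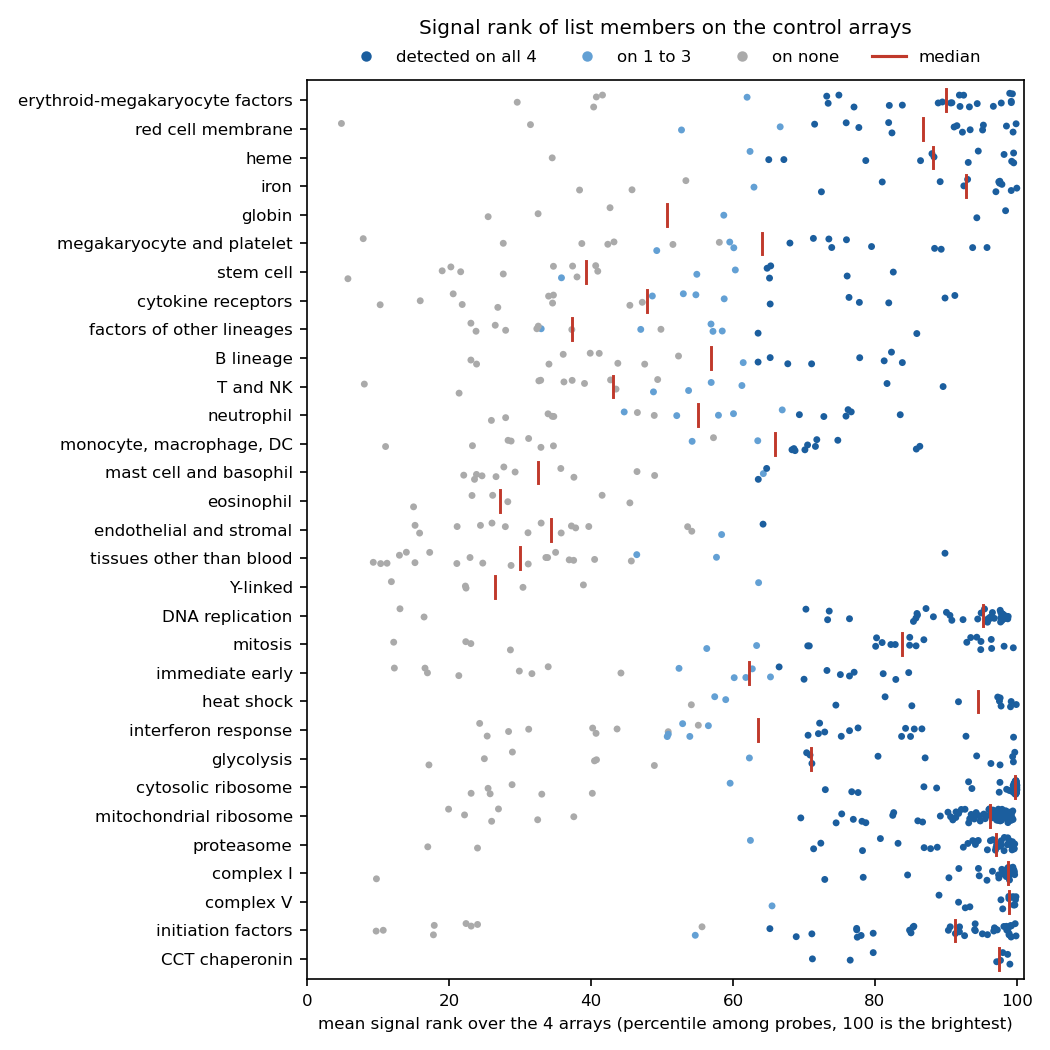
Mean signal rank over the 4 control arrays, as a percentile among probes with 100 the brightest, for each measured member of each list, with the list median as a red line. Cytosolic ribosomal proteins lie at the bright end with a median of 99.8, erythroid and megakaryocyte factors at 90.1, and eosinophil genes at 27.2.

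Some markers of other blood cells were detected. Of B-lineage genes 8 of 18 (44.4%) were detected on all 4 arrays, a share near the 37.6% of all genes, and 9 were on none. Vpreb1, a surrogate light chain of precursor B cells, had signals of 443, 621, 353 and 363 and a mean rank of 83.9. Cd79b, a signalling chain of the B-cell receptor, had signals of 273, 408, 405 and 457. Its normalized values were higher on arrays 2 and 3, at 8.43 and 8.56, than on arrays 1 and 4, at 7.49 and 7.90. Vpreb3, Mzb1, Fcrla and Cd79a ranked between 67.7 and 81.3. Ms4a1, Cd22, Rag2 and Pax5 were on none. The summed background-corrected signal of the 8 detected genes was 935, 1678, 1331 and 729 on arrays 1 to 4.

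Neutrophil genes were detected on all 4 arrays in 6 of 18 cases (33.3%, against 37.6% of all genes), and 7 were on none. S100a8 and S100a9 encode the subunits of calprotectin, an abundant granulocyte protein. S100a8 had signals of 595, 541, 227 and 481, and S100a9 of 298, 307, 144.3 and 323. Both were lowest on array 3, where the normalized log2 values were 7.26 and 5.52. Without array 3 the SD of S100a9 was 0.34 in place of 1.07. The granule enzymes of immature granulocytes, Prtn3, Mpo, Ctsg and Elane, ranked between 69.3 and 76.7. Of late granule genes Camp was detected on 3 arrays, with signals of 181, 165, 129 and 213 and a mean rank of 66.9, Ltf on 1, and Lcn2 and Ngp on none. Camp and Ltf were named after their values were seen. The summed signal of the 6 detected genes was 1252, 949, 531 and 733. Their part in the spread of other genes was not tested.

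Monocyte, macrophage and dendritic cell genes were detected on all 4 arrays in 10 of 20 cases (50%, against 37.6% of all genes). H2-Ab1, of class II antigen presentation, and Lyz1, a lysozyme, ranked at 86.3 and 85.8. C1qa, C1qb and C1qc, subunits of complement C1q made by macrophages, ranked at 68.6, 74.8 and 70.1 and were all highest on array 3. C1qb read 6.74, 6.85, 7.46 and 6.29 on the normalized log2 scale. Cd74, the class II invariant chain, was also highest on array 3, at 7.38, and lowest on array 1, at 5.39. Vcam1, Cd163, Lyz2 and Siglech ranked between 68.3 and 71.8. Cd14, Cx3cr1, Ccr2 and Itgax were on none. The summed signal of the 10 detected genes was 1426, 1164, 1555 and 1137.

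Lists of other cell types had smaller shares detected on all 4. Of T and NK genes, Prf1, the pore-forming perforin, and Nkg7, a protein of cytotoxic granules, were detected on all 4, at mean ranks of 89.6 and 81.7. The other 14 measured genes of that list were on fewer arrays, 10 of them on none. Fcer1a and Hdc were detected on all 4 among 14 mast cell and basophil genes, at ranks of 64.7 and 63.6, and 11 were on none. Of 6 eosinophil genes all were on none. Alpl, at rank 64.2, was the endothelial and stromal gene on all 4 arrays, with 14 of 16 on none. Of 22 genes typical of tissues other than blood 19 were on none. Mbp, known for its myelin protein and also used in blood cells through its golli transcripts, was on all 4 at rank 89.9.

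Genes of the cell cycle were mostly detected. Of 36 DNA replication genes 34 were detected on all 4 arrays, with a median rank of 95.6, and of 26 mitosis genes 20. Rpa1, of the single-stranded DNA binding complex RPA, had signals of 5651, 5466, 5270.0 and 8515 and ranked at 98.8. Mcm5 of the replicative helicase ranked at 98.7, and Cenpa, the centromeric histone, at 99.5. Cdca3 and Cdc20, which act in the passage through mitosis, ranked at 98.2 and 96.4. Top2a, topoisomerase II alpha, was less even, with normalized log2 values of 8.04, 8.63, 9.25 and 8.82. Of 7 inhibitors of cyclin-dependent kinases, Cdkn2c and Cdkn2d were on all 4, at 81.7 and 71.3, and 3 were on none.

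The SOSS complex binds single-stranded DNA at breaks, and its levels in WT cells are the baseline of the series. Ints3, its scaffold, had signals of 995, 989, 989 and 1869 and a mean rank of 92.8. Nabp2 (SSB1) had signals of 580.4, 502, 346 and 853, with a mean rank of 86.4, and its normalized log2 value was lowest on array 3, at 8.25 against 9.01, 8.82 and 9.04. Without array 3 its SD was 0.12 in place of 0.37. Inip had signals of 316, 213, 268 and 345 and ranked at 78.5. The probe of Nabp1 (SSB2) was detected on none. Nabp2 and Inip had more spread than most genes of their level, with SDs of 0.37 and 0.40 on the log2 scale, that of Inip being 0.26 without array 2.

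The brightest signals came from the protein synthesis machinery. Rps4x and Rplp1, both ribosomal proteins, stood first and second, with Rps4x at 32408, 31154, 30813 and 31949. The 20 brightest genes held 10 cytosolic ribosomal proteins and 3 histones, and the brightest 100 held 42 and 8. Among them were also Tuba1b of the cytoskeleton, Gpx1, a peroxidase, Hspa8, a chaperone, and Atpif1, the inhibitor of ATP synthase that is known for a role in heme synthesis. The brightest 100 genes carried between 18.6% and 23.1% of the summed signal per array, and the brightest 1000 between 58.4% and 62.3%. Of 63 cytosolic ribosomal protein genes 56 were detected on all 4, while Rpl6, Rpl17, Rplp2 and Rps23 were on none although every cell needs them. Histone and ribosomal protein genes also have close copies that a probe may read.

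Other housekeeping complexes were almost complete. Of mitochondrial ribosomal proteins 70 of 76 genes were detected on all 4 arrays, of proteasome genes 40 of 43, of complex I genes 33 of 34, of complex V genes 15 of 16 and of CCT chaperonin genes 8 of 8. Their median ranks among the detected lay between 96.7 and 98.9. At the other end 992 of 1053 olfactory receptor genes were on none and 4 on all 4. Per array between 2.28% and 2.47% of them passed the detection threshold of 0.05.

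Spread between the arrays fell with signal. Over the 6242 genes detected on all 4, the median SD of normalized log2 values was 0.18, with 0.07 at the 5th percentile and 0.41 at the 95th. Only 110 genes had an SD above 0.5. The median SD was 0.25 in the dimmest 10% of these genes and 0.15 in the brightest 10%. Each SD was therefore also given as a percentile among genes of the same 10% of level. The median rank of a gene moved by 2.03 points between its lowest and highest array.

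**Figure D4:**
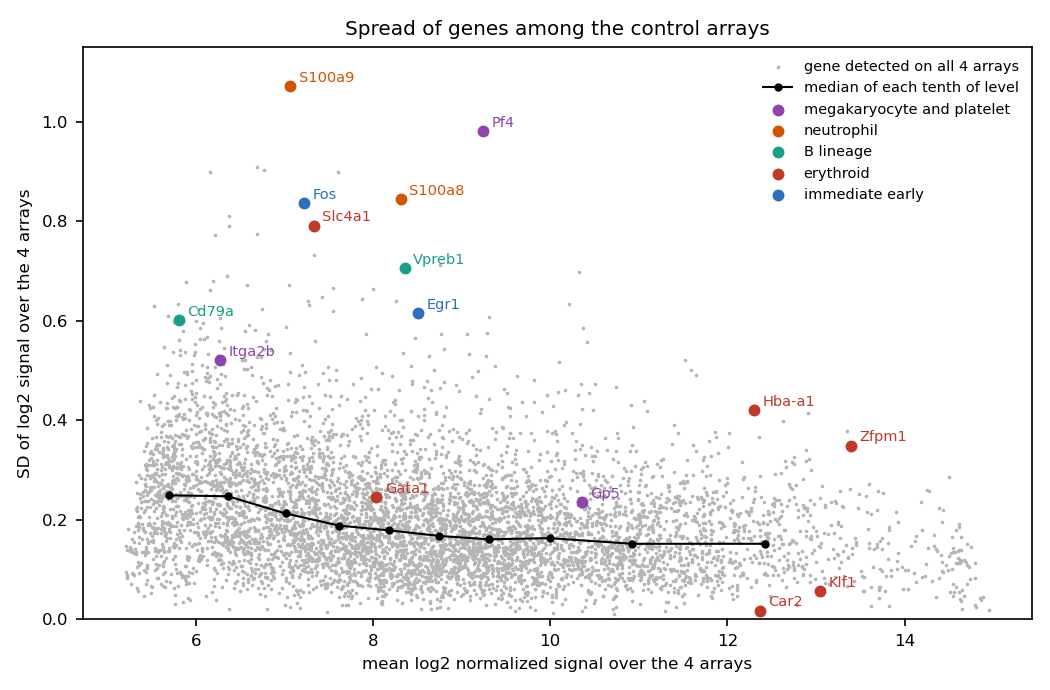
SD of log2 normalized signal over the 4 control arrays against the mean log2 normalized signal, with 1 grey point per gene detected on all 4 and the median of each 10% of level in black. S100a9 and Pf4 stand highest at SDs of 1.07 and 0.98, while Car2 and Klf1 lie at 0.02 and 0.06.

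Single genes differed widely in spread. Clone names and predicted genes left aside, the largest SDs belonged to S100a9 at 1.07, Pf4 at 0.98 and Ccl5, a chemokine of T, NK and other blood cells, at 0.91. Klk8 and Fxyd5 followed at 0.90 each, and S100a8 and Fos, an immediate early transcription factor, stood at 0.84. Without array 1 the SDs of Klk8 and Fxyd5 were 0.19 and 0.31, and without array 2 that of Ccl5 was 0.57. Tmsb10, a regulator of actin, was uneven for a bright gene, with signals of 2301, 1573, 705 and 1437 and a level-matched percentile of 100. Of the 30 genes so ranked, 20 by SD and 10 by SD relative to level, 21 were highest on array 1 and 15 lowest on array 4. Among the 320 genes in the highest 5% for their level, array 1 was highest for 188, or 58.8%. It was highest for 27.7% of all 6242 genes. Array 4 was lowest for 50.6% of the 320 and for 22.9% of all.

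Programmes differed in how evenly they were measured. The level-matched percentile of the SD had a median of 98.8 for the 8 detected B-lineage genes, 95.4 for the 6 neutrophil genes, 90.7 for 9 immediate early genes, 88.9 for 10 megakaryocyte genes, 86.7 for 10 monocyte and macrophage genes and 86.0 for 14 interferon response genes. Over all genes this median is near 50 by construction. Erythroid and megakaryocyte factors stood at 56.6, DNA replication genes at 49.9, mitosis genes at 50.4 and cytosolic ribosomal proteins at 39.8. Without array 1 the immediate early median was 67.8 and that of the CCT chaperonin 34.2 in place of 82.2, and without array 3 the interferon median was 56.2. With neither background correction nor normalization between arrays the B-lineage median was 22.9 and that of interferon genes 40.2. In the same setting the monocyte and macrophage median was 43.5 and the immediate early median 53.3.

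**Figure D5:**
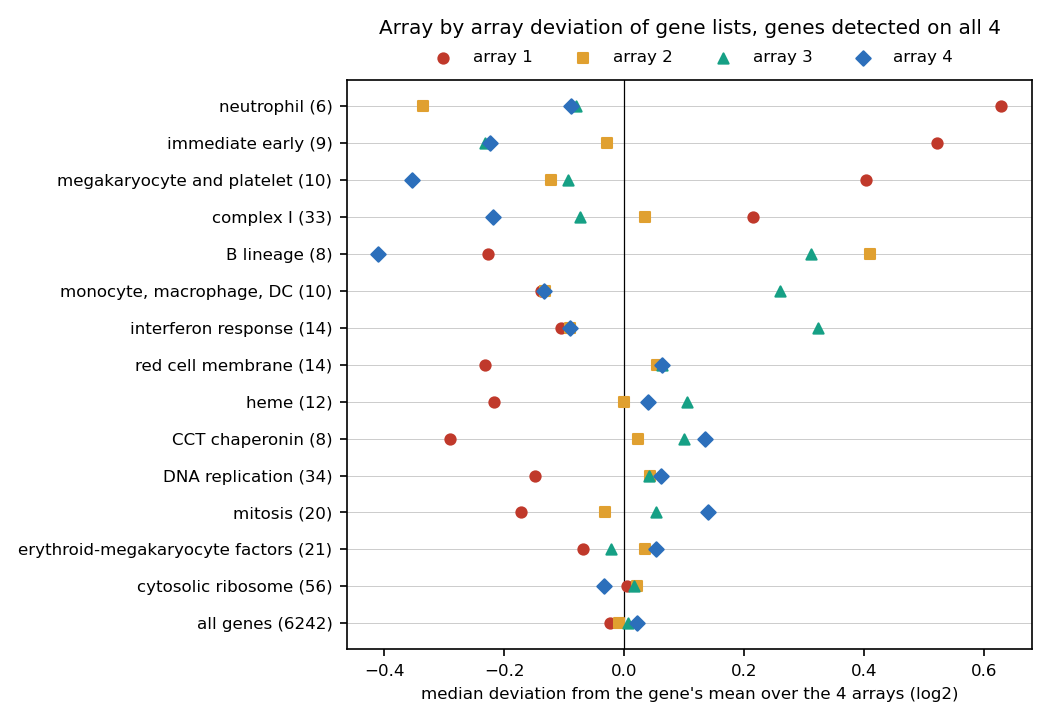
Median deviation of list members from their own mean over the 4 control arrays, in log2 units of normalized signal, with 1 symbol per array and the number of genes detected on all 4 in parentheses. Array 1 stands high for neutrophil, immediate early and megakaryocyte genes and low for red cell membrane, heme and CCT genes, while array 3 stands high for interferon and macrophage genes.

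Array 1 differed from the others in several programmes at once. All 9 detected immediate early genes were highest there, with a median deviation of 0.52 from the mean of each gene on the log2 scale. Fos read 8.36 on array 1 and 7.22, 6.38 and 6.92 on arrays 2 to 4, with an SD of 0.43 without array 1 in place of 0.84, and Egr1 and Dusp1 were highest there too, at 9.25 and 8.71. Of megakaryocyte genes 8 of 10 were highest on array 1 (median deviation 0.40), of neutrophil genes 4 of 6 (0.63) and of complex I genes 26 of 33 (0.22). On the same array 12 of 14 red cell membrane genes were lowest (median deviation -0.23), as were 9 of 12 heme genes (-0.22), 7 of 8 CCT genes (-0.29) and 21 of 34 replication genes (-0.15). Over all detected genes the median deviation of array 1 was -0.02, with 27.7% of genes highest and 34.5% lowest there. The summed signal of the megakaryocyte genes was 6823, 4341, 5016 and 4927 on arrays 1 to 4. The summed signal of neutrophil genes was also highest on array 1, but the other arrays stood in another order. On array 2 it was 949, above 531 and 733 on arrays 3 and 4, whereas the megakaryocyte sum was lowest on array 2. The neutrophil median deviation was lowest on array 2 at -0.34, opposite to that sum. The part of neutrophil genes in the other values of array 1 was not tested.

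Most detected interferon response genes were highest on array 3. Of 28 interferon response genes 14 were detected on all 4 arrays and 9 on none, and 11 of the 14 were highest on array 3, with a median deviation of 0.32. Of all 6242 detected genes 24.2% were highest on array 3. Igtp, an interferon-induced GTPase, read 7.89, 7.88, 8.93 and 8.64 on the normalized log2 scale, and Usp18, which removes ISG15 from proteins, 8.75, 8.57, 9.30 and 8.67. Irgm1, of the same GTPase family, was the member lowest on array 3. It had a mean rank of 99.5 and read 13.39 on array 3, against 13.84, 13.87 and 13.66. The summed signal of the 14 genes, 18093, 18142, 15223 and 16115 on arrays 1 to 4, was lowest on array 3, opposite to the median deviation. Irgm1, the highest ranked of the 14, weighs most in that sum. Of 10 monocyte and macrophage genes, 5 were highest on array 3, 3 on array 1 and 2 on array 2. Their part in the interferon values was not tested.

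Arrays 2 and 3 together held the higher B-lineage values, with median deviations of 0.41 and 0.31 against -0.23 on array 1 and -0.41 on array 4. Each of the 8 genes was highest on array 2 or array 3, 4 on each. Of all 6242 detected genes 19.0% were highest on array 2 and 24.2% on array 3. With neither background correction nor normalization between arrays, the median deviation of all detected genes was 0.38 on array 4 and -0.21 on array 3. Set relative to that median, the deviations given above kept their sign under each of 5 other scalings for immediate early, megakaryocyte, neutrophil, complex I, red cell membrane, heme, CCT, replication, interferon and B-lineage genes. Among the 5 was normalization of all 7 arrays together. The sizes of the deviations were less stable. On array 1 the relative deviation ranged over those scalings from 0.27 to 0.54 for immediate early genes, 0.25 to 0.45 for megakaryocyte, 0.29 to 0.67 for neutrophil and 0.22 to 0.41 for complex I genes. On the same array it ranged from -0.22 to -0.14 for red cell membrane, -0.23 to -0.06 for heme, -0.26 to -0.17 for CCT, -0.12 to -0.04 for replication and -0.22 to -0.05 for B-lineage genes. For B-lineage genes it ranged from 0.27 to 0.43 on array 2, 0.13 to 0.31 on array 3 and -0.47 to -0.17 on array 4, and for interferon genes from 0.20 to 0.32 on array 3.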

How the data were processed

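Signals were measured on Illumina MouseRef-8 v2.0 bead arrays, of which the 4 control arrays were described. The deposited signal table held intensity values on a linear scale, not normalized, as deposited by the authors. GenomeStudio is named in the submitters' processing notes, while its version, and the build behind the probe annotation, were not given in the sources used here. The detection p-value beside each signal was deposited by the authors and moved in steps of 1 in 800. A second deposited table held the authors' normalized log2 values, and its centring is not stated. It served as an alternative.

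Probes were named through the platform annotation, in which 23978 of 25697 probes had 1 symbol, 1719 none and 0 more than 1. The RefSeq table held the gene IDs of 23962 of them. Signals were background-corrected, quantile normalized with an offset of 16 and put on the log2 scale with neqc in limma 3.58.1 (R 4.3.3), on these 4 arrays only. Ranks used the raw signals. Tables were made with Python 3.11.15, pandas 2.3.3, numpy 2.4.6 and scipy 1.17.1, and figures with matplotlib 3.10.9. The script was tested on simulated data, with larger spread planted in 200 detected probes above a set mean level. Planted SDs of 0.25, 0.5, 1 and 2 were recovered at medians of 0.23, 0.42, 0.88 and 1.76, averaged over 5 runs. Recovery in weaker probes was not tested. Spread is the SD over 4 arrays, and no test between groups was run. A promoter window held 250 bases before and 50 after the start.

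The set of arrays and the 45 gene lists were chosen with earlier results of these data known. Named were the 20 brightest genes, the 30 most variable by raw or level-matched SD, the members of the marker, gate, sex, globin and SOSS lists, the 6 brightest and 3 most variable detected members of each other list, detected markers of other cells, and members detected on none. Clone names and predicted genes were counted but not described. Some listed genes, Kit among them, were not analysed here. Alternatives tried were a stricter detection threshold of 0.01, other background and scaling steps, all probes in place of detected probes, the mean of a gene's probes, the authors' table, and leaving out each array. Another was neqc on all 7 arrays, the 3 from mice without SSB1 and SSB2 included, with only the control values read from it.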

Additional observations from a re-analysis of the deposited data

Results flagged for a closer look

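In 156 sets of 4 array values, the gap between an extreme array and its nearest neighbour was divided by the whole range, and 7 passed Dixon's critical value for 4 samples at the 95% level. Chance flags about 1 in 20 such sets, or 7.8 of 156, so their number is no more than chance gives. Array 1 was low for red cell membrane genes, with a ratio of 0.972, and for replication genes, with 0.909. The median deviations of the red cell membrane genes were -0.23, 0.06, 0.06 and 0.06 on the log2 scale. Array 3 was high for monocyte, macrophage and dendritic cell genes, with a ratio of 0.984, and for interferon response genes, with 0.962. The complement genes C1qa and C1qc were high on array 3 as well, with ratios of 0.955 and 0.854. With median scaling the ratios were 0.772 for red cell membrane, 0.335 for replication and 0.799 for monocyte genes, all under the critical value, and 0.832 for interferon genes, just above it. With neither background correction nor normalization between arrays the 4 ratios were 0.789, 0.787, 0.692 and 0.642 in the same order. None passed, and array 4 was the extreme one. There the median deviation of all detected genes was itself 0.38 on array 4. The ratios were not set relative to it, so they cannot bear on the lists. C1qa read 5.66, 5.65, 6.58 and 5.61, and C1qc read 5.91, 5.77, 6.76 and 5.92. Without array 3 their SDs were 0.03 and 0.09. Hmox1, the enzyme that breaks heme down, was high on array 2, with a ratio of 0.859 and normalized log2 values of 5.24, 6.12, 5.36 and 5.23. Among probes without a gene symbol, 497 of 1719 (28.9%) were detected on all 4 arrays, against 33.8% of the named probes.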

How the results depend on the processing

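With detection at 0.01, 7208 probes passed on all 4 arrays and 15064 on none, and without 1 array the counts were 8153 to 8497 and 13362 to 13621. The median SD of probes detected on all 4, 0.19, became 0.12 without background correction and 0.29 with neither background correction nor normalization between arrays. It was 0.12 in the authors' table, 0.14 over all probes and 0.157 to 0.188 without 1 array. The median range of ranks, 2.03, became 2.58 when probes of a gene were averaged, and was 1.44 to 1.67 without 1 array, where fewer arrays narrow a range by construction. The median CpG ratio of genes detected on none was 0.383 at a detection threshold of 0.01 in place of 0.355. The other 31 recomputed summary values stayed within the tolerance set for them. The mean rank of 43 of 142 named genes moved when probes were averaged. Without background correction the SD moved for 39 of 129. Of 2421 genes with several probes and the brightest detected on all 4, 1077 (44.5%) had another probe detected on none. The median level-matched percentile of cytosolic ribosomal proteins was 39.8, but 8.9 with neither background correction nor normalization and 83.4 with median scaling. That of complex V genes was 34.7, but 83.7 with median scaling. The causes were not tested. Signals near the background, where most undetected probes lie, limit what can be said of weak genes. No paired analysis was possible because 1 group was described and no groups were compared.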

Other observations

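Several gene families outside the blood programmes were read on the same arrays. Of 10 Hoxa genes 2 were detected on all 4 arrays and of 10 Hoxb genes 2, while of 9 Hoxc and 9 Hoxd genes 0 were, with 7 and 8 on none. Of 44 keratin genes, structural proteins of epithelia, 2 were on all 4 and 37 on none, and Krt10 ranked highest at 79.0. Solute carriers were detected on all 4 in 107 of 315 cases, a share of 34.0% against 37.6% of all genes.

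Heat shock and glycolysis genes differed in how many were detected. Of 14 heat shock genes 11 were detected on all 4, and of 18 glycolysis genes 11, with 6 on none. Among the detected the median rank was 97.5 for heat shock and 94.3 for glycolysis genes. Over all measured genes it was 94.5 and 71.0. Gapdh, Ldha and Tpi1, the brightest of the glycolysis genes, ranked at 99.7, 99.5 and 99.4. Of 47 translation initiation factor genes 38 were detected on all 4, with a median rank of 94.1 among them. Eif3c, a subunit of initiation factor 3, had an SD of 0.63. Complex I genes differed between the arrays in 1 direction for most members, being highest on array 1 in 26 of 33 cases and lowest on array 4 in 22. Over all detected genes these shares were 27.7% and 22.9%.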
